A study of Canis lupus familiaris with 20 samples.

Results

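Vertebral cartilage of MPS VII dogs at postnatal day 14 was set against that of control dogs at postnatal day 9, so that the affected tissue was compared with the younger control stage. The members were chosen by label alone: 5 libraries of MPS VII dogs of day 14 and 5 of control dogs of day 9, which makes 10 of the 20 libraries of the series. MPS VII dogs were homozygous and control dogs heterozygous for a missense change in GUSB, the gene of a lysosomal enzyme, so both groups carried at least 1 changed copy. The other 10 libraries, 5 of control dogs of day 14 and 5 of MPS VII dogs of day 9, served as the second pair of groups. Each library came from 1 animal, with epiphyseal tissue from both ends of the T12 vertebra pooled, and the dogs are a naturally occurring model rather than an engineered one. The labels give no sex, litter or sequencing batch for single animals.

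In mucopolysaccharidosis VII (MPS VII) the enzyme beta-glucuronidase is lacking, and glycosaminoglycans, the sugar chains of cartilage proteoglycans, accumulate in lysosomes. Vertebral epiphyses form as cartilage and are replaced by bone in endochondral ossification: chondrocytes enlarge, vessels enter, matrix is resorbed by osteoclasts and bone is laid down by osteoblasts. In MPS disorders this replacement of vertebral cartilage is known to be delayed or to fail. Genes are given here by their position in the dog genome build CanFam3.1 and, for 4 of them, by Ensembl identifier, because the file does not pair identifiers with names. For that reason the labelled tissue could not be checked against marker genes, nor could the level of GUSB be given.

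Control day 9 libraries held 22703756 to 28028365 counts and MPS VII day 14 libraries 15772761 to 22471728, with no overlap (exact two-sided permutation p = 0.00794, the smallest that 5 against 5 allows, adjusted p = 0.0317 over 4 such tests). The share of even counts among low counts was 74.9% ± 1.62 at control day 9 and 69.7% ± 4.24 at MPS VII day 14 (SD, n = 5 each; exact permutation p = 0.0476, adjusted p = 0.0635). Age, depth and any batch that went with age cannot be told apart in what follows. In bulk tissue, fewer cells of a type and less RNA per cell cannot be told apart either. MPS VII day 9 replicate 3 stood apart from the rest of its group, at a distance of 1.11 from the control day 9 mean against 0.530 to 0.655, and the counts of the second comparison that rest on it are given with and without it.

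Along the line between the control means, MPS VII day 14 cartilage lay about midway between control day 9 and control day 14. Each library was placed on the line from the control day 9 mean to the control day 14 mean of log2 CPM (CPM are normalised counts scaled to the library total) over 14550 genes, with control day 9 at 0% and control day 14 at 100%; control libraries were left out of their own mean. MPS VII day 14 libraries stood at 41.8%, 54.1%, 57.1%, 49.3% and 43.1% for replicates 1 to 5. Control day 9 libraries stood at 24.3%, 3.41%, 7.67%, -2.39% and 0.927%, and control day 14 libraries at 106%, 82.6%, 83.6%, 111% and 87.7%. All 5 affected libraries therefore lay above every control day 9 library and below every control day 14 library. The mean of 49.1% ± 6.68 differed from 6.78% ± 10.4 at control day 9 and from 94.3% ± 13.4 at control day 14 (SD, n = 5 each; exact two-sided permutation p = 0.00794 in both, adjusted p = 0.00794 over 6 tests). MPS VII day 9 libraries stood at 7.39% ± 9.30 (20.3% in replicate 3 and -3.30% to 10.3% in the rest), also below every MPS VII day 14 library (exact permutation p = 0.00794).

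The distances of MPS VII day 14 libraries to the younger and to the older controls differed by less than the spread between libraries. Distance here is the root mean square difference in log2 CPM over all tested genes. To the control day 9 mean it was 0.755, 0.796, 0.827, 0.862 and 0.773 for replicates 1 to 5, and to the control day 14 mean 0.814, 0.767, 0.776, 0.866 and 0.822. Of the 5 libraries, 3 were nearer to control day 9 and 2 nearer to control day 14. The difference of both distances averaged 0.00647 ± 0.0479 (SD, n = 5), while it was 0.381 ± 0.0594 in control day 9 libraries and 0.298 ± 0.0902 in MPS VII day 9 libraries, where replicate 3 had 0.142 and the rest 0.306 to 0.372. Distances to the day 9 mean were 0.432 to 0.515 among control day 9 libraries themselves, below all 5 values of MPS VII day 14, and 0.763 to 0.914 in control day 14 libraries, which overlapped them. MPS VII day 14 libraries averaged 0.803 from the day 9 mean and 0.809 from the day 14 mean. Control day 14 libraries averaged 0.825 from the day 9 mean, and control day 9 libraries 0.834 from the day 14 mean. The position along the line thus leaves out much of how MPS VII day 14 differed from both control ages.

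**Figure D1:**
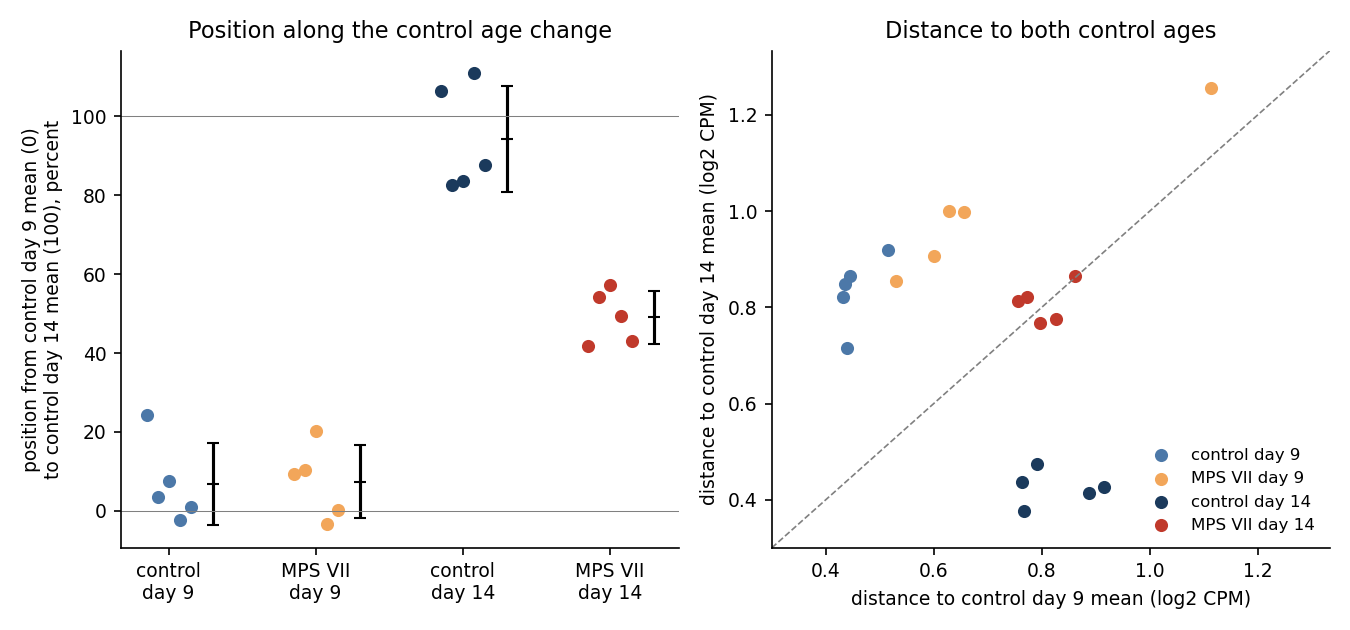
Left, position of each of the 20 libraries on the line from the control day 9 mean (0) to the control day 14 mean (100), in percent, with group means and SD as bars. Right, distance of each library to both control means in log2 CPM, with a dashed line where both are equal. MPS VII day 14 libraries sit between 41.8% and 57.1% on the left and along the dashed line on the right.

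Between MPS VII day 14 and control day 9, 4643 of 14550 tested genes (31.9%) passed the test, 2644 higher (18.2%) and 1999 lower (13.7%) in the affected libraries (edgeR quasi-likelihood test, Benjamini-Hochberg adjusted p under 0.05 over all tested genes). Large changes were mostly upward: 1004 of the called genes were at least 2-fold higher and 262 at least 2-fold lower, and 292 against 44 passed 4-fold. In 3668 genes (25.2%) the 5 libraries of one group all lay above those of the other, and 3263 of these genes were called. For 9362 genes (64.3%) the 95% interval of the difference lay within 2-fold either way. By the same fit, control day 14 against control day 9 called 6187 genes (42.5%), with 58.3% of intervals within 2-fold, and MPS VII day 14 against control day 14 called 3202 (22.0%), with 66.6% within 2-fold. These comparisons share libraries with the main one, so the counts are given side by side without a test.

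The direction of calls went with exon length. The median log2 fold change of MPS VII day 14 against control day 9 was -0.20 in genes with up to 1038 bases of exon (261 higher, 466 lower of 2920) and 0.15 in genes with at least 4626 bases (938 higher, 267 lower of 2909), against -0.046 over all genes. In 1184 single-exon genes it was -0.19, with 121 higher and 125 lower, or 20.8% called against 31.9% of all genes. Of the called genes 56.9% were higher as fitted, but 46.7% with the trend on exon length removed from each library (2186 higher, 2496 lower), so the excess of higher calls turned into an excess of lower ones. The part of exon length in single genes was not tested beyond that fit. X-chromosomal genes numbered 109 higher and 90 lower of 555, or 35.9% called, and 17 mitochondrial genes 4 higher and 3 lower, or 41.2%, against 31.9% of all genes.

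A second comparison, control day 14 against MPS VII day 9, uses the other 10 libraries and shares none with the first. Both comparisons set day 14 against day 9 but with the genotypes exchanged. A change with age alone gives the same sign in both, and a difference with genotype alone gives opposite signs. Where a gene has both and they add up, the sign follows the larger of them. If the change with age differs between the genotypes, the signs need not follow this rule. The classes therefore do not separate age from genotype gene by gene. Both comparisons come from 1 fit over all 20 libraries and share its filter, scaling and estimate of spread. This second comparison called 7134 genes (49.0%), 3259 higher (22.4%) and 3875 lower (26.6%) at control day 14, by the same edgeR test; without MPS VII day 9 replicate 3 it called 3711 higher and 3712 lower. Across 14550 genes, which are not independent replicates, the log2 fold changes of both comparisons correlated with r = 0.00412 (Pearson) and rho = 0.230 (Spearman). Both correlations include MPS VII day 9 replicate 3 and were not computed without it.

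Of the 4643 genes called between MPS VII day 14 and control day 9, 2145 (46.2%) were called the same way in the second comparison, 676 (14.6%) the opposite way and 1822 (39.2%) were not called there. Among genes higher at MPS VII day 14, 1353 were also higher in the second comparison, which is 51.2% of that list and 41.5% of the other. Another 439 were lower in it (16.6% and 11.3%). Among genes lower at MPS VII day 14, 792 were lower in both (39.6% and 20.4%), and 237 were higher in the second (11.9% and 7.27%). The genes with opposite signs had larger changes, with a median log2 fold change of 1.06 for the 439 and -0.83 for the 237, against 0.75 for the 1353 and -0.50 for the 792. At least 2-fold changes in both comparisons were found in 181 and 84 of the opposite genes and in 275 and 38 of those with the same sign. The number lower in both rested on single libraries: it was 527, 502 and 502 without MPS VII day 14 replicate 2, 3 or 5. Without MPS VII day 9 replicate 3 the 4 numbers were 1742, 514, 1138 and 327, in the order given.

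**Figure D2:**
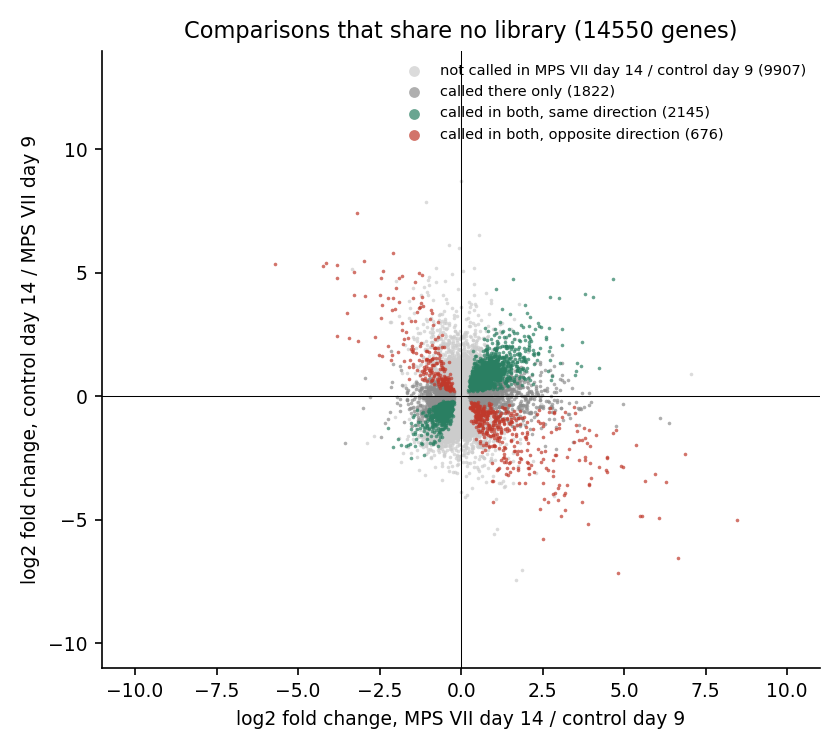
Each point is 1 of 14550 genes, with its log2 fold change of MPS VII day 14 against control day 9 on the x axis and of control day 14 against MPS VII day 9 on the y axis. Green points (2145) passed the test in both comparisons in the same direction and red points (676) in opposite directions; the red points reach farther from the centre.

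Relative to control day 9, the group levels of these classes are as follows, as a description, since the classes were picked on the same libraries, MPS VII day 9 replicate 3 included. The 1353 genes higher in both stood at a median of 0.74 ± 0.16 above control day 9 on the log2 scale in MPS VII day 14, 0.86 ± 0.11 in control day 14 and 0.02 ± 0.08 in MPS VII day 9 (SD over 5 libraries). The 439 genes of opposite sign stood at 1.03 ± 0.17 in MPS VII day 14 and 1.02 ± 0.13 in MPS VII day 9, but at -0.08 ± 0.04 in control day 14. The 237 genes lower at MPS VII day 14 and higher in the second comparison stood at -0.77 ± 0.07 in MPS VII day 14, -0.73 ± 0.23 in MPS VII day 9 and 0.38 ± 0.10 in control day 14. The 852 genes higher at MPS VII day 14 that the second comparison did not call stood at 0.42 ± 0.16 in MPS VII day 9, 0.47 ± 0.05 in control day 14 and 0.83 ± 0.08 in MPS VII day 14.

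The most raised gene was ENSCAFG00000002753, on the plus strand of chromosome 14 from 36918913 to 36947518, with 12 exons. It held 2.999, 1.96, 1.59, 4.17 and 0.806 CPM in control day 9 replicates 1 to 5, and 743, 1124, 700.4, 896 and 611 CPM in MPS VII day 14. Every affected library thus stood far above every control one. The log2 fold change was 8.48 ± 0.45 (SE; edgeR adjusted p = 6.68e-11). In the other groups it held 303 CPM ± 69.2 at MPS VII day 9 and 9.24 CPM ± 4.91 at control day 14 (SD, n = 5 each), and the second comparison gave -5.03 ± 0.38, the opposite sign.

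Most of the other genes with the largest rises were near 0 in young controls. The choice favours such genes, since it set a floor of 2 CPM in the higher group only. On chromosome 11, a gene of 3 exons from 58085495 to 58090683 held 0 to 0.0896 CPM at control day 9 and 3.25 to 6.76 CPM at MPS VII day 14 (log2 fold change 6.29 ± 0.40, edgeR adjusted p = 2.20e-10); MPS VII day 9 held 2.68 to 3.09 CPM. On chromosome 20, a gene of 17 exons from 53342021 to 53385263 went from 0.169 CPM ± 0.163 to 10.3 CPM ± 2.51 (log2 fold change 5.96 ± 0.47), with 0.622 CPM ± 0.240 at control day 14. The groups did not overlap in either gene. On chromosome 7, a gene from 5720687 to 5752812 held 0 to 0.256 CPM at control day 9 and 5.14, 5.43, 9.04, 18.3 and 5.82 CPM at MPS VII day 14 (log2 fold change 6.11 ± 0.63). Both of the other groups lay between these levels, at 3.43 CPM ± 2.51 in MPS VII day 9 and 1.85 CPM ± 1.06 in control day 14. A rise from almost no counts was on chromosome 1 (93645049 to 93688867): control day 9 had 3 counts in all, each from replicate 1, and MPS VII day 14 had 260. The fitted log2 fold change of 6.38 was 8.81 without that control library. Its ratio of normalised counts was 98.9, with an exact 95% interval of 33.5 to 483 that covers counting error only.

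Several of the raised genes varied strongly among affected animals. A gene on chromosome 9, from 37734558 to 37740115, held 0.279 to 1.97 CPM at control day 9 and 45.5, 30.8, 24.6, 85.3 and 43.0 CPM at MPS VII day 14 (log2 fold change 5.54 ± 0.73, edgeR adjusted p = 1.28e-05). Another on chromosome 9, from 53425168 to 53472725, held 0.464 to 1.16 CPM at control day 9 and 12.0, 16.3, 8.59, 54.8 and 14.8 CPM at MPS VII day 14. Its log2 fold change of 4.81 ± 0.95 was 4.12 without MPS VII day 14 replicate 4 and kept its call. A gene on chromosome 38, from 20979963 to 20994524, was likewise highest in that replicate, at 9.38 CPM against 2.90 to 4.04 in the rest, with 0 to 0.209 CPM at control day 9; the fitted difference was 5.63 ± 0.84 on the log2 scale (6.43 if control day 9 replicate 1 was left out). In the second comparison MPS VII day 9 replicate 3 moved all 3 of these genes by more than 1.5-fold: in the order given their log2 fold changes went from -4.85 to -3.71, from -7.15 to -5.25 and from -3.43 to -2.24 without that library.

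Among the genes with the largest falls, which the choice limited to those of at least 2 CPM at control day 9, was ENSCAFG00000017319. This gene, on chromosome 20 from 49813686 to 49817040 on the plus strand, held 1251, 839, 943, 375 and 613 CPM at control day 9 and 59.7, 38.4, 107, 44.0 and 39.2 CPM at MPS VII day 14. The highest affected library was thus below the lowest control one. The log2 fold change was -3.80 ± 0.39 (edgeR adjusted p = 3.69e-07). Control day 14 stood at 2303 CPM ± 316 and MPS VII day 9 at 57.4 CPM ± 30.1 (SD, n = 5 each), so both affected groups lay below the young controls and the older controls above them.

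The same order of groups held for ENSCAFG00000008749, on chromosome 29 from 32336302 to 32380452. It held 14.8, 10.5, 15.8, 6.61 and 9.58 CPM at control day 9 and 0.918, 0.762, 2.85, 1.38 and 1.45 CPM at MPS VII day 14 (log2 fold change -2.98 ± 0.38, edgeR adjusted p = 6.97e-06). Control day 14 held 74.6 CPM ± 28.8 and MPS VII day 9 held 1.66 CPM ± 0.767. On chromosome 5, a gene of 11 exons from 28978383 to 28986863 fell from 12.1 CPM ± 6.93 to 1.26 CPM ± 0.610 (log2 fold change -3.27 ± 0.53), with 40.0 CPM ± 5.199 at control day 14. On chromosome 14, a gene of 27 exons from 13542668 to 13614146 fell from 2.22 CPM ± 0.919 to 0.526 CPM ± 0.177 (log2 fold change -2.09 ± 0.45), with 14.9 CPM ± 5.98 at control day 14. On chromosome 24, a gene of 2 exons from 33797121 to 33799731 fell from 2.04 CPM ± 1.38 to 0.144 CPM ± 0.160 (log2 fold change -3.82 ± 0.62). In these genes MPS VII day 14 was farther from control day 14 than control day 9 was.

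In the gene on chromosome 24 control day 14, at 3.555 to 5.95 CPM, overlapped control day 9, at 0.464 to 4.12 CPM. The same held on chromosome 13, where a gene from 42897655 to 42957706 held 5.196 to 6.49 CPM at control day 9 and 0.459 to 2.57 CPM at MPS VII day 14 (log2 fold change -2.11 ± 0.41), while control day 14, at 4.32 to 11.6 CPM, overlapped control day 9. The other 2 had lower means at control day 14 than at control day 9. On chromosome 9, a gene from 46061572 to 46133445 fell from 3.99 CPM ± 1.44 to 0.742 CPM ± 0.442, and was 2.06 CPM ± 0.317 at control day 14. On chromosome 23, a gene from 30171261 to 30331789 fell from 2.03 CPM ± 0.413 to 0.422 CPM ± 0.234, and was low at control day 14 too, at 0.634 CPM ± 0.285. Of the 8 genes with the largest falls, 7 had the opposite sign in the second comparison and only this last had the same sign, a call that was lost without MPS VII day 9 replicate 3 (log2 fold change -0.79, edgeR adjusted p = 0.0873).

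Genes that separated MPS VII day 14 from control day 9 in the same way as they separated the other 2 groups included small single-exon genes. ENSCAFG00000031299, of 1 exon on chromosome 27 from 5411374 to 5412162, held 0.418, 0.384, 0.572, 0.928 and 0.493 CPM at control day 9 and 7.67, 9.38, 11.7, 9.00 and 7.76 CPM at MPS VII day 14. The log2 fold change was 4.05 ± 0.32 in the main comparison and 4.03 ± 0.31 in the second (edgeR adjusted p = 5.81e-09 and 4.06e-09). Levels at MPS VII day 14 overlapped those of control day 14, at 9.64 to 12.3 CPM. On chromosome 6, an 86-base gene (74881601 to 74881686) rose from 0 to 0.244 CPM at control day 9 to 3.103 to 4.41 CPM (log2 fold change 4.67 ± 0.45, and 4.75 ± 0.48 in the second comparison). On chromosome 18, a 91-base gene (51703501 to 51703591) held 2.60 CPM ± 0.588 at control day 9 and 22.3 CPM ± 4.68 at MPS VII day 14 (3.11 ± 0.18 and 2.73 ± 0.18). On chromosome 28, a 72-base gene (22226255 to 22226326) held 0.404 CPM ± 0.134 and 3.25 CPM ± 1.35 (3.01 ± 0.34 and 3.98 ± 0.35). The genes of 72, 86 and 91 bases are shorter than a read of 100 bases. Whether their counts come from these genes or from longer overlapping transcripts was not tested.

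Shared falls were smaller. On chromosome 2, a gene of 17 exons from 28440950 to 28510822 held 121 to 169.7 CPM at control day 9, 51.9 to 74.7 CPM at MPS VII day 14 and 30.9 to 50.2 CPM at control day 14. Its log2 fold change was -1.21 ± 0.15 (edgeR adjusted p = 3.51e-06), and -1.17 ± 0.15 in the second comparison. On chromosome 37, a gene from 26052168 to 26058810 fell from 3.32 CPM ± 0.812 to 1.20 CPM ± 0.525 (-1.46 ± 0.31), close to the 1.23 CPM ± 0.320 of control day 14. Genes on chromosome 33 from 19841468 to 20136897 and on chromosome 22 from 48675520 to 48675867 fell by 1.40 ± 0.35 and by 1.11 ± 0.29 on the log2 scale.

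**Figure D3:**
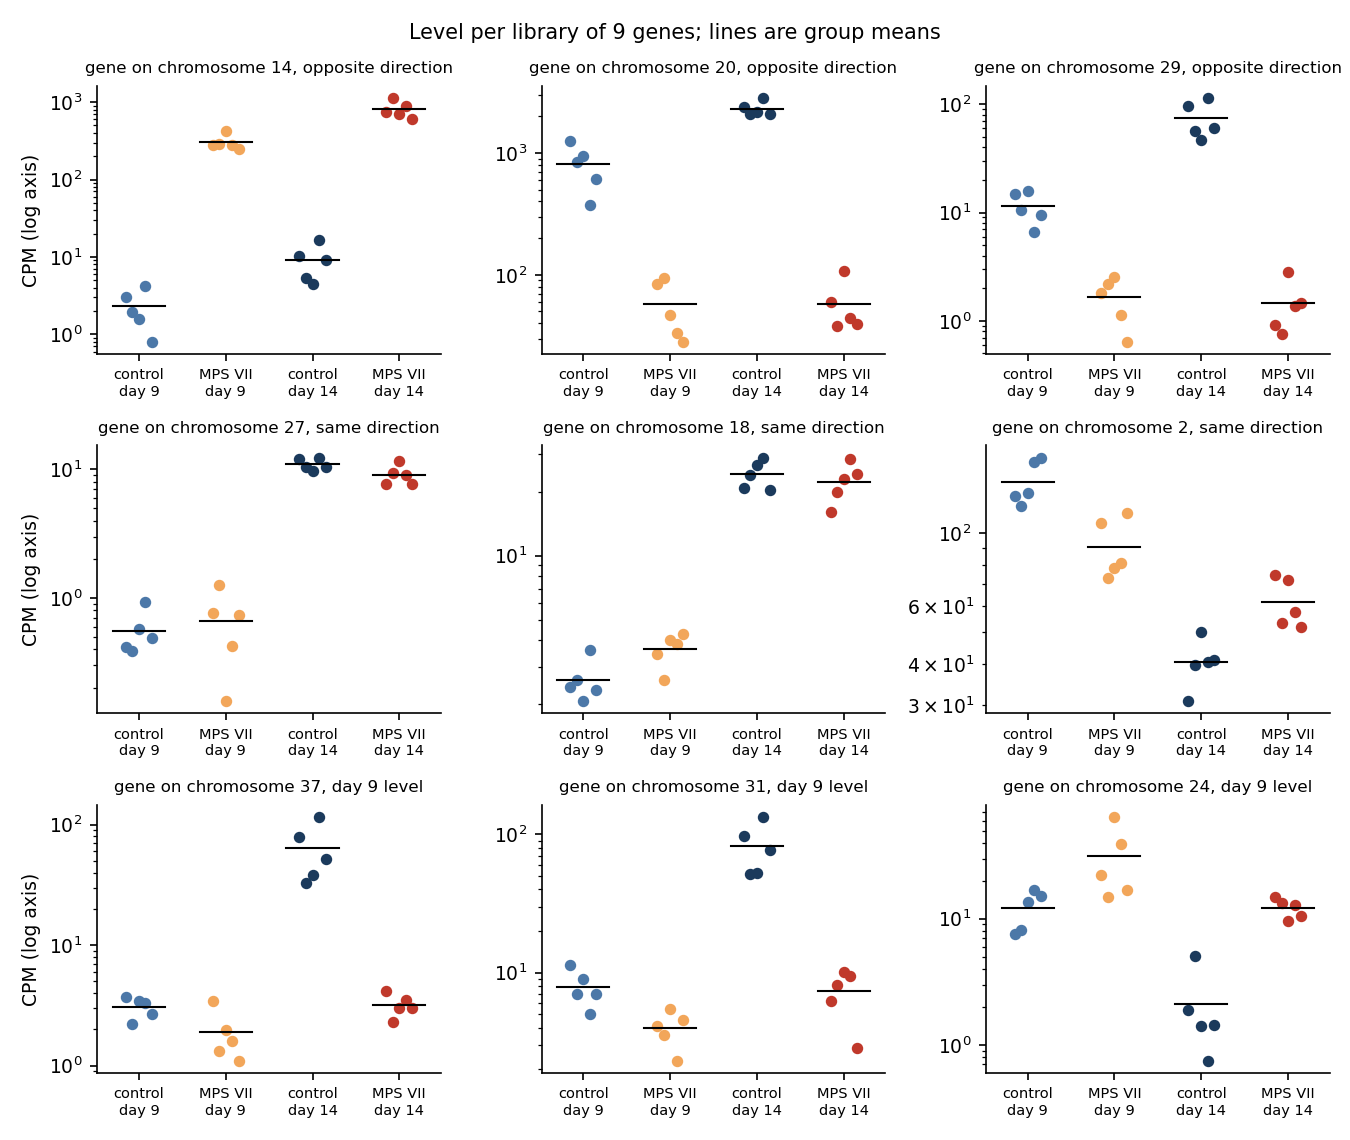
CPM on log axes in each library of the 4 groups, with lines at group means, for 9 genes: 3 whose comparisons have opposite signs (top), 3 with the same sign (middle) and 3 at the control day 9 level in MPS VII day 14 (bottom). In the top row the means of both affected groups lie on the same side of both control means. In the middle row the means of both day 14 groups lie on the same side of both day 9 means. Groups on the same side do not always overlap. In the bottom row control day 14 stands apart from MPS VII day 14 and control day 9.

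Genes picked by the contrast of the other 10 libraries were measured in the main comparison. The pick took those called and at least 4-fold higher or lower in the second comparison. It takes in changes with age in controls as well as levels already altered at MPS VII day 9. A small median can therefore mix rises and falls, and does not by itself show that the day 9 level was kept. In the main comparison the 374 genes higher at control day 14 than at MPS VII day 9 had a median log2 fold change of -0.17 (quartiles -0.88 and 0.78), against -0.046 for all tested genes. Of them 74 were called higher at MPS VII day 14 than at control day 9, 60 were called lower and 240 were not called, so 35.8% were called in either direction against 31.9% of all genes. Past 4-fold there were 26 in each direction. The 95% interval lay within 2-fold for 56 of the 374 (14.97%), against 64.3% of all genes; the standard errors were larger too, at a median of 0.454 against 0.181. For most of these genes the data leave a change of 2-fold either way undecided.

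The 270 genes at least 4-fold lower at control day 14 than at MPS VII day 9 had a median of 0.81 in the main comparison, with 108 called higher at MPS VII day 14, 5 called lower and 157 not called. Their interval lay within 2-fold for 25 (9.26%). Without MPS VII day 9 replicate 3, 416 genes were picked as higher and 214 as lower, with medians of -0.042 and 0.99 in the main comparison. With a pick at 2-fold in place of 4-fold, 1312 genes higher at control day 14 had a median of 0.33 in the main comparison, and 1299 lower ones a median of -0.041.

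**Figure D4:**
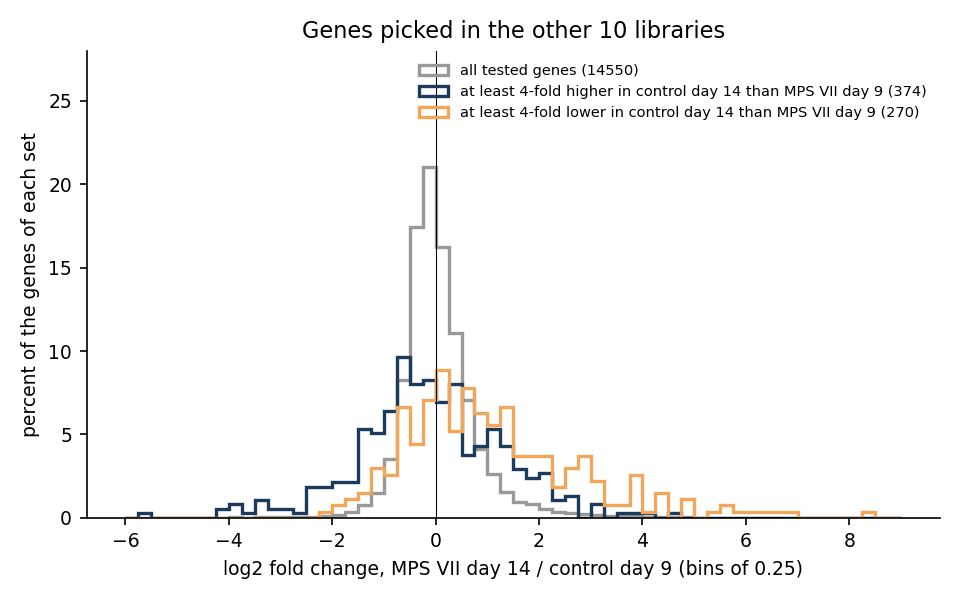
Share of genes, in percent per bin of 0.25, by log2 fold change of MPS VII day 14 against control day 9, for all 14550 tested genes and for 374 and 270 genes picked in the other 10 libraries. The genes picked as higher at control day 14 centre near 0 with a median of -0.17, and those picked as lower reach farther to the right, with a median of 0.81.

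The 4 genes with the largest change in the second comparison among those within 2-fold in the main one are given as a description, since that choice fixes their pattern. On chromosome 37, a gene of 13 exons from 8547922 to 8731180 held 3.70, 2.22, 3.43, 3.30 and 2.69 CPM at control day 9 and 4.18, 2.28, 3.01, 3.50 and 3.01 CPM at MPS VII day 14, a log2 fold change of 0.06 with a 95% interval of -0.64 to 0.75. Control day 14 held 32.8 to 115 CPM, and MPS VII day 9 held 1.10 to 3.45 CPM. On chromosome 31, a gene of 27 exons from 9414710 to 9590959 stood at 7.84 CPM ± 2.39 and 7.34 CPM ± 2.90 (interval -0.77 to 0.56), against 82.3 CPM ± 34.1 at control day 14. Both genes thus had overlapping levels in the 2 groups compared and a higher, separate level in older controls.

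In the other direction, a gene of 12 exons on chromosome 2 from 70225456 to 70234420 held 1128, 1328, 1322, 1286 and 1173 CPM at control day 9 and 2487, 1260.0, 934, 2060.3 and 1043 CPM at MPS VII day 14. The log2 fold change was 0.32 with an interval of -0.25 to 0.89, and 2 affected libraries stood above all young controls. Control day 14 held 119 to 256 CPM. On chromosome 24, a single-exon gene from 43590339 to 43591082 stood at 12.2 CPM ± 4.13 and 12.2 CPM ± 2.13, against 2.12 CPM ± 1.71 at control day 14 (interval 0.86 either way).

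The most abundant genes, which in these libraries took a large share of all counts, changed less clearly. The gene with the most counts, of 54 exons on chromosome 27 from 6756994 to 6787846, took 25.7% to 35.1% of counts at control day 9 and 16.3% to 27.6% at MPS VII day 14 (by exact permutation, two-sided p = 0.0159 and adjusted p = 0.0317 over 4 tests). In CPM it stood at 251047, 383349.7, 384629.7, 462148 and 384891 in control day 9 and at 284596, 224258, 143228, 217187 and 186192 in MPS VII day 14. The groups overlapped, since control replicate 1 was below affected replicate 1. Its log2 fold change of -0.82 ± 0.38 did not pass the edgeR test across all genes (adjusted p = 0.104), but did with only the 10 libraries compared (edgeR adjusted p = 0.00601), with the exon length trend removed (0.0407) and with DESeq2 (0.0408).

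Of the 10 most abundant genes of these 10 libraries, 1 was called higher and 2 lower, or 3 of 10 against 31.9% of all genes. The one called higher, of 45 exons on chromosome 37 from 22455906 to 22523117, went from 6766 CPM ± 1849.6 to 11607 CPM ± 1989 (log2 fold change 0.78 ± 0.26, edgeR adjusted p = 0.0258). That call was lost without control day 9 replicate 1, 2 or 5 (edgeR adjusted p = 0.0719, 0.0634 and 0.0540), and with the exon length trend removed (log2 fold change 0.51, edgeR adjusted p = 0.133). A gene of 40 exons on chromosome 12, from 32763693 to 32847276, went from 24611 CPM ± 1239 to 14529 CPM ± 2372 with no overlap (-0.76 ± 0.26, edgeR adjusted p = 0.0276), a call lost without control day 9 replicate 2 or MPS VII day 14 replicate 2, 4 or 5. A mitochondrial gene, from 8644 to 9427, fell from 7211 CPM ± 1393 to 4509 CPM ± 412 (-0.68 ± 0.16, edgeR adjusted p = 0.00290), with 4876 CPM ± 633 at control day 14. Per kilobase of exon, the gene on chromosome 27 held 74021 CPM and the one on chromosome 12 held 6785 CPM at control day 9.

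The remaining abundant genes did not pass the test as fitted. On chromosome 6, a gene of 69 exons from 47425307 to 47622225 stood at 50412 CPM ± 4433 at control day 9, 39387 CPM ± 3947 at MPS VII day 14 and 27981 CPM ± 4286 at control day 14. On chromosome 3, a gene of 17 exons from 51995115 to 52032255 stood at 15313 CPM ± 3348, 10064 CPM ± 2474 and 7734 CPM ± 2652 in the same order. On chromosome 12, a gene of 65 exons from 2626822 to 2655698 stood at 12499 CPM ± 2277, 7915 CPM ± 2802 and 4927 CPM ± 1280.5. On chromosome 15, a gene of 8 exons from 31834014 to 31877417 stood at 5704 CPM ± 372, 5275 CPM ± 536 and 3608 CPM ± 781, with a log2 fold change in the main comparison of -0.11 and an interval of -0.44 to 0.22. Of these, the chromosome 3 gene from 51995115 passed with DESeq2 (adjusted p = 0.0330), with only the 10 libraries compared (edgeR adjusted p = 0.0230), with the exon length trend removed (0.0139) and without control day 9 replicate 1 (0.0461). The chromosome 12 gene from 2626822 passed with only the 10 libraries (edgeR adjusted p = 0.0223), with the trend removed (0.0324) and without MPS VII day 14 replicate 1 (0.0383). The chromosome 6 gene from 47425307 passed with the trend removed (edgeR adjusted p = 0.0354). Genes on chromosome 4 from 57659350 to 57680981 and on chromosome 3 from 23999219 to 24078497 had log2 fold changes of -0.31 ± 0.18 and -0.10 ± 0.22.

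Runs of at least 3 adjacent tested genes called higher by at least 2-fold were found at 30 places, and no such run was lower. Of 14550 tested genes, 1004 were called at least 2-fold higher and 262 at least 2-fold lower, so upward runs had more genes to form from. Whether 30 runs exceed the number that a random gene order would give was not tested. These runs spanned 20.8 to 3416 kilobases. They are described by their values only, since adjacent genes can be near-identical copies or overlap and share reads. A run of 5 genes on chromosome 11 (67678600 to 67746324) was 1.005 to 6.06 higher on the log2 scale, and all 5 had the opposite sign in the second comparison (-4.95 to -1.46). The strongest of them, from 67713589 to 67726155, held 0 to 0.0896 CPM at control day 9 and 1.00 to 7.36 CPM at MPS VII day 14. Another of 4 genes on chromosome 12 (9914891 to 10000216) was higher by 1.93 to 4.92, the second of them from 0.635 CPM ± 0.195 to 19.4 CPM ± 7.44, against 1.76 CPM at control day 14; 3 of the 4 were called the opposite way in the second comparison.

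Other runs had the same sign in both comparisons. Such a run of 4 genes on chromosome 3 (73520706 to 73663660) was higher by 1.12 to 2.14, and by 0.72 to 2.74 in the second comparison. The last of them went from 28.5 CPM ± 3.01 at control day 9 to 61.8 CPM ± 3.90 at MPS VII day 14 and stood at 59.0 CPM at control day 14. A run of 3 on chromosome 6 (68077795 to 68400785) was higher by 1.19 to 1.93, the first from 20.2 CPM ± 3.73 to 46.4 CPM ± 13.1, with 103.9 CPM at control day 14. One of 3 genes on chromosome 27 (35919910 to 36205042) was higher by 1.297 to 2.71, and by 1.34 to 2.79 in the second comparison.

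Some runs were higher in all 3 other groups than at control day 9. In a run on chromosome 9 (5858852 to 5976435) 4 genes were 2.34 to 4.65 higher. The first of them went from 1.52 CPM ± 0.143 at control day 9 to 23.1 CPM ± 7.30 at MPS VII day 14, with 8.81 CPM at MPS VII day 9 and 9.77 CPM at control day 14. A run of 6 genes on chromosome 16 (14752828 to 14896569), was 1.62 to 3.17 higher, and 2 of the 6 were called in the same direction in the second comparison. On chromosome 2 (76649363 to 76670143) 3 genes were 1.41 to 2.35 higher; the last went from 5.87 CPM ± 0.442 to 30.0 CPM ± 11.8, with 23.6 CPM at MPS VII day 9 and 11.8 CPM at control day 14.

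Of the 4643 called genes, 3 had 0 counts over all 5 libraries of a group; genes that were filtered out or not called were not counted. They are named after their values were seen. With a floor of 3 counts over the group, an X-chromosomal gene (55882433 to 55883557) was at MPS VII day 14 at least 25.1-fold higher than at control day 9, with 66 counts in 5 libraries against 0. For a chromosome 20 gene (47062281 to 47067001) the bound was at least 21.7-fold higher, with 57 counts against 0. On chromosome 13, a gene from 44944265 to 44966954 was at least 9.64-fold lower, with 33 counts at control day 9 and 0 at MPS VII day 14. If every count were divided by 2, as for mates counted separately, these bounds were 12.6, 10.8 and 4.82.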

How the data were processed

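RNA sequencing was done on polyadenylated RNA with a stranded kit, in paired reads of 100 bases mapped, per the labels' protocols, to CanFam3.1 and Ensembl build 77. Tools listed without a role in the submitters' processing notes are STAR 2.4.0j, HTSeq, edgeR, bcl2fastq and CASAVA 1.8.2. The authors deposited raw counts per gene for 24580 genes in 20 libraries of 15772761 to 28028365 counts; 0 count columns belonged to no sample. How reads were counted, and on which strand, is not given in the sources used here; overlapping, antisense and near-identical genes are therefore uncertain. Among counts from 1 up to 200, 65.2% to 76.4% per library were even, so fits were repeated with counts halved. The interval of a ratio of counts and the floors for 0 counts cover counting error only; intervals of log2 fold changes come from the fit and include the spread between libraries. No 2 libraries of a group were alike within sampling noise (chi-square per gene 16.7 to 607 over 40 pairs).

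Counts were fitted with edgeR 4.0.16 in R 4.3.3: filterByExpr (14550 genes kept; the 10030 dropped held 0.0413% of counts), scaling by the trimmed mean of M values, 1 mean per group over all 20 libraries, and the quasi-likelihood test with Benjamini-Hochberg adjustment at 0.05. Each standard error was taken as the absolute log2 fold change over the root of its F statistic. CPM are normalised counts, and log2 CPM used a prior count of 2. Library values were compared by exact two-sided permutation tests. The fit and the placing of libraries were also run on simulated counts. No exon length trend or outlying library was put into these counts, and no conclusion is drawn from them here.

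The libraries were taken by label, while this comparison, the gene rules and the lists were chosen with earlier results of these data known. Named genes are, per direction, the 8 with the largest called log2 fold change, no overlap between groups and at least 2 CPM in the higher group; under the same conditions in both comparisons, the 4 strongest of the same and of the opposite sign; 4 genes not called in the main comparison whose 95% interval lies within 2-fold, with the largest change in the second; and the 10 most abundant. Of the identifiers, 0 matched the symbol table of another assembly, UU_Cfam_GSD, so 25 gene lists and cell type markers were not used. Alternatives were DESeq2 1.42.0, its size factors, no filter, the 10 libraries compared alone, counts halved, each library left out and, chosen after seeing the data, the exon length trend removed.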

Additional observations from a re-analysis of the deposited data

Results flagged for a closer look

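In 106 groups of 5 values (library measures in 4 groups, and CPM of the named genes in the 2 groups compared), 9 held a value farther from the rest than Dixon's critical ratio of 0.71 allows; chance alone gives about 1 in 20 groups. Control day 9 replicate 4 was 0.515 from the mean of its group, against 0.432 to 0.444 in the rest. MPS VII day 9 replicate 3 was 1.11 from the control day 9 mean, against 0.530 to 0.655. MPS VII day 9 replicate 1 had 71.2% even counts, against 75.1% to 76.4%.

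Among genes, MPS VII day 14 replicate 4 was high for the gene on chromosome 38 from 20979963 (9.38 CPM, against 2.90 to 4.04) and for that on chromosome 9 from 53425168 (54.8 CPM, against 8.59 to 16.3). MPS VII day 14 replicate 1 was high for the gene on chromosome 33 from 19841468 (2.16 CPM, against 1.24 to 1.45). MPS VII day 14 replicate 3 was low for the abundant gene on chromosome 37 from 22455906 (8069 CPM, against 12287 to 12816). Control day 9 replicate 4 was high for the gene on chromosome 15 from 31834014 (6332 CPM, against 5423 to 5677). Control day 9 replicate 1 alone held counts for the gene on chromosome 1 from 93645049 (0.105 CPM).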

How the results depend on the processing

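Picking past 2-fold in place of 4-fold in the second comparison gave 1312 genes higher and 1299 lower at control day 14, with medians of 0.33 and -0.041 in the main comparison and 410 and 449 intervals within 2-fold; a lower threshold takes in more genes by construction. Leaving out each library in turn gave 502 to 1138 genes lower in both comparisons (the lowest without MPS VII day 14 replicate 3 or 5) and 16 to 30 genes picked lower with an interval within 2-fold (the lowest without MPS VII day 14 replicate 2 or 5); the cause was not tested. Over the same omissions the main comparison called 2283 to 3251 genes higher and 1412 to 2561 lower, the highest of both without MPS VII day 9 replicate 3, which enters it through the shared filter, scaling and spread. The mean position of MPS VII day 14 was 0.460 to 0.519 of the control change over these omissions. Both position differences kept their sign and their call with each library left out. They also did so with DESeq2 size factors, no filter, counts halved, a prior count of 0.5 and without the 20 most abundant genes. The position was not computed with the exon length trend removed, so its dependence on that trend was not tested. Under alternatives, 30 values of named genes lost and 19 gained a call, and 1196 are counted as unchanged. These 1196 include sign changes of values not called as fitted. An example is the gene on chromosome 31 from 9414710, with log2 fold changes of -0.37 to 0.12 in the main comparison. Among the genes chosen for large changes in the main comparison, none lost its call there in the alternatives that tested it. Abundant genes were most affected. Alternatives in which a gene was not tested or had no adjusted p are not counted. This left 15 values in place of 16 for the chromosome 24 gene from 33797121 in the main comparison. The chromosome 9 gene from 53425168 likewise had 15 in each comparison. No paired analysis was possible because the labels give no replicate numbers, litters or batches that pair animals.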
